A study of Mus musculus with 18 samples.

Results

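The hair follicle keratins described here are 10 mouse genes chosen by name (Krt25, Krt27, Krt28, Krt71, Krt72, Krt73, Krt31, Krt35, Krt85 and Tchh). They were chosen because their counts had been seen to differ between libraries of cells sorted from mammary gland. The choice therefore used the same counts that are given below, and the members' own values are a description with no test. Of the 52636 genes in the count tables, 9 of the 10 had an identifier that matched the annotation. Krt85 had none and was not analysed here. Tchh (ENSMUSG00000052415, chromosome 3 93442330–93449077, + strand), which encodes trichohyalin, had 0 counts in all 18 libraries. Its whole span lies inside a predicted gene on the opposite strand, Gm37245, so its 0 says nothing about expression. The other 8 genes overlap no other gene in the annotation, all passed the filter on low counts, and are the members measured.

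RNA was sequenced from cells sorted by flow cytometry from mammary glands of 6-month-old mice. The mice carried the D542G or the Y541S mutation of Esr1, the gene of the estrogen receptor, or were wild type (WT). All of them had received pellets of estradiol and progesterone (E2 and P4) and then giredestrant, an antagonist of that receptor, by mouth at 30 mg/kg daily for 4 days, so no library comes from an untreated mouse. For each genotype there are 3 libraries of a gate that the labels call N and 3 libraries of the mature luminal gate, ML, 18 libraries in all. The labels give mature luminal cells as the source of both gates and state biological replicates, but not whether the N and ML libraries of one number share a mouse, or how the mutations were made. Genes that mark luminal cells in general, such as Krt18, Krt19 and Epcam, were abundant in every ML library (summed CPM of 9 genes 16102 to 32625). In N libraries these genes summed to 1401 to 18939 CPM, with the highest sum in WT N 3. The list of 9 mammary basal genes, such as Krt5 and Krt14, summed to 5017 to 35817 CPM in N libraries, lowest in WT N 3. In ML libraries the basal genes summed to 144 to 6310.5 CPM. N against ML thus also compares libraries rich in basal transcripts with libraries rich in luminal transcripts, except in WT N 3. CPM are each gene's counts put on a common library size with TMM factors, and the libraries held 34797778 to 49507144 counts in genes.

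A hair grows from matrix cells at the base of the follicle, which give rise to the hair shaft in the centre and to a sheath around it, the inner root sheath, that is shed before the hair leaves the skin. Keratins form filaments as pairs of a type I and a type II protein, and each layer of the follicle has its own set. Krt25, Krt27 and Krt28 are type I and Krt71, Krt72 and Krt73 are type II keratins of the inner root sheath, whereas Krt31 and Krt35 are type I keratins of the hair shaft. Trichohyalin fills and hardens the inner root sheath. These keratins are known from the hair follicle rather than from mammary epithelium.

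The type I members lie together on chromosome 11 of GRCm38 and the type II members on chromosome 15, all on the − strand. Krt25 (ENSMUSG00000035831) spans 99315516–99322951, Krt27 (ENSMUSG00000017588) 99345565–99351104 and Krt28 (ENSMUSG00000055937) 99364872–99374903 on chromosome 11. Krt31 (ENSMUSG00000048981) spans 100046646–100050551 and Krt35 (ENSMUSG00000048013) 100092193–100096241 on the same chromosome. On chromosome 15, Krt71 (ENSMUSG00000051879) spans 101733949–101743109, Krt72 (ENSMUSG00000056605) 101776172–101786460 and Krt73 (ENSMUSG00000063661) 101793308–101802346. Coding sequences were most alike for Krt25 and Krt27 (84.7% of aligned bases identical) and for Krt71 and Krt73 (81.8%), and at most 68.8% alike between the type I sheath, type II sheath and shaft genes. How reads that match 2 such genes were counted is not given in the sources used here.

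Since the members were high in the same libraries, the promoters of 5 of them are shown, 250 bases before to 50 bases after the RefSeq gene start (GRCm38.p6, − strand, 5′ to 3′). Capitals mark exact matches, on either strand, to 3 kinds of word: the TATA word (TATAAA), TCF/LEF words, which are CTTTGAA, its variant CTTTGAT, its variant CTTTGTA and its variant CTTTGTT, and GATA words, which are AGATAA, its variant AGATAG, its variant TGATAA and its variant TGATAG. Krt25, Krt27, Krt71 and Krt73 are shown because each holds a GATA word upstream of a TATA word, and Krt31 as a shaft keratin with TCF/LEF words.
Krt25, chr11:99322902-99323201: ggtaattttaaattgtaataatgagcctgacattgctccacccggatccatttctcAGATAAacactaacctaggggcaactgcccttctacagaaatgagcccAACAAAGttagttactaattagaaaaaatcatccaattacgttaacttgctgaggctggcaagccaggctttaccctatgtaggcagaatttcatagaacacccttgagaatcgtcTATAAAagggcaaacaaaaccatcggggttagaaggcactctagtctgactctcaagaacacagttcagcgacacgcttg
Krt27, chr11:99351069-99351368: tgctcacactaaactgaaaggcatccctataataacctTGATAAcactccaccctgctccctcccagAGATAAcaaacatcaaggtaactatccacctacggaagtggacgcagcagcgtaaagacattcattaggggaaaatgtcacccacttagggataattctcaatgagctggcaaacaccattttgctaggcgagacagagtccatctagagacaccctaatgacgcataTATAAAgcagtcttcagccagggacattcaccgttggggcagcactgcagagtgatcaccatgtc
Krt71, chr15:101743048-101743347: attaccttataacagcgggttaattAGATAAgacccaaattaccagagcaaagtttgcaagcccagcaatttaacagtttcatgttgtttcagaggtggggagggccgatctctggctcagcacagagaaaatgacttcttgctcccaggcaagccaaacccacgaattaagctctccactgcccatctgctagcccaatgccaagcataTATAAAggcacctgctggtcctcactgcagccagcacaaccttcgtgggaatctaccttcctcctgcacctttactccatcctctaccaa
Krt73, chr15:101802311-101802610: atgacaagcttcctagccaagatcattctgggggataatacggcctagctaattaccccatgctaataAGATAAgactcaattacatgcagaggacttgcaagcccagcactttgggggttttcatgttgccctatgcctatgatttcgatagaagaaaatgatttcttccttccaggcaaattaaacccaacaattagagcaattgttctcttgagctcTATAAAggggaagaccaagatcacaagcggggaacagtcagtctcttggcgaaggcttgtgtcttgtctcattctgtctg
Krt31, chr11:100050502-100050801: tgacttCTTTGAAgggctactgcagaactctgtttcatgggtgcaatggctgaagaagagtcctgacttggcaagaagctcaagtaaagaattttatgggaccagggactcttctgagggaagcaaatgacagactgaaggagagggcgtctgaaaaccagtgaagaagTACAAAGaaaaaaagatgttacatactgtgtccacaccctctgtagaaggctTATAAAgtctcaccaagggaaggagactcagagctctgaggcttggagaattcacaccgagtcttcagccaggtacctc

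The RefSeq table held promoters for 8 of the 10 members: the 7 measured members other than Krt35, and Tchh. The TATA word stood in 7 of these 8 windows, against 13.6% of all 32841 promoters in the table. It began 30 bases before the gene start in Krt25, Krt28 and Krt73, 40 before it in Krt71, 29 before it in Krt31 and 15 before it in Krt27, and in Krt72 it lay on the opposite strand and further upstream. GATA words stood in 5 of the 8 windows, against 29.8% of all promoters, and began 194 bases before the start in Krt25, 183 and 212 in Krt27, 225 in Krt71 and 182 in Krt73. GATA3 is a transcription factor known for its role in the inner root sheath. TCF/LEF words, the kind of site that Lef1 of the hair matrix binds, stood in 4 of the 8, against 16.9% of all promoters. These matches describe the letters in the windows. The 5 windows with GATA words and the 4 with TCF/LEF words include that of Tchh, which had 0 counts. Krt25 and Krt27, and Krt71 and Krt73, are close in coding sequence. The windows therefore cannot be taken as independent, and the shares were not tested. GATA words overlapped a TCF/LEF word in Tchh only, and no binding was measured.

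Summed over the 8 measured members, N libraries 1 to 3 had 5.44, 2.40 and 1.78 CPM in D542G mice, against 150.2 CPM in D542G ML 1, 0.215 in D542G ML 2 and 0.434 in D542G ML 3. Y541S N libraries 1 to 3 had 8.31, 12.7 and 11.7 CPM, against 0.0475, 0 and 4001 CPM in Y541S ML libraries 1 to 3. WT N libraries 1 to 3 had 82.6, 6.18 and 0.666 CPM, against 6179, 1267 and 1.72 CPM in WT ML libraries 1 to 3. The keratins were thus high in 3 ML libraries (WT ML 1, WT ML 2 and Y541S ML 3), intermediate in D542G ML 1 and WT N 1, and low in the rest, and N and ML libraries overlapped in every genotype. In WT ML 1 the 8 genes made up 0.677% of all gene counts (257109 counts), in Y541S ML 3 0.423% and in WT ML 2 0.132%. Y541S ML 2 had no count of any member among 41203387, which allows up to 0.0750 CPM (3 counts) for each, counting error only. In bulk libraries such as these, fewer cells of a type and less RNA per cell cannot be told apart.

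**Figure D1:**
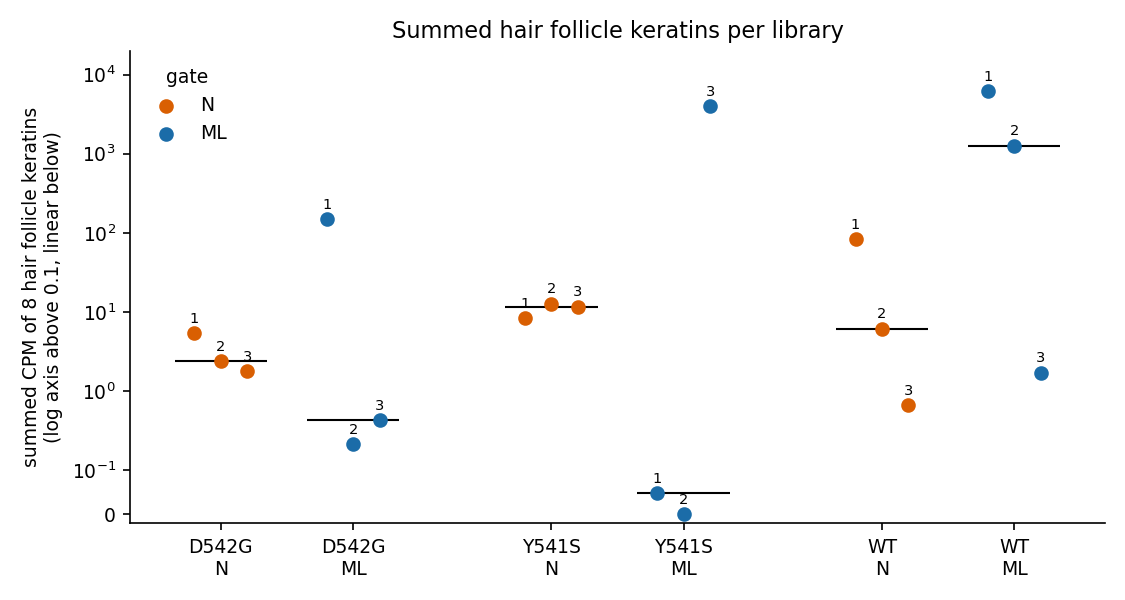
Summed CPM of the 8 measured hair follicle keratins in each library (y axis, log scale above 0.1 CPM and linear below), by genotype and gate (x axis); points are libraries with their numbers, and the line is the median of 3. The 3 highest points are WT ML 1 at 6179, Y541S ML 3 at 4001 and WT ML 2 at 1267 CPM, whereas the other ML libraries lie between 0 and 150.2 CPM.

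As group means the sums were 3.21 ± 1.96 CPM in D542G N and 50.3 ± 86.5 in D542G ML libraries, 10.9 ± 2.30 in Y541S N and 1334 ± 2309.7 in Y541S ML libraries, and 29.8 ± 45.8 in WT N and 2482 ± 3263 in WT ML libraries (SD, n = 3 each). In each ML group the SD exceeded the mean. Over the genotypes, the 9 N libraries ranged from 0.666 to 82.6 CPM with a median of 6.18, and the 9 ML libraries from 0 to 6179 CPM with a median of 1.72. The mean was 14.6 CPM in N and 1289 CPM in ML libraries, so the gates are ordered one way by the mean and the other way by the median.

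Krt71, the most abundant inner root sheath keratin per kilobase of exon in the 3 highest libraries, pairs with the type I sheath keratins. It had 3.93, 1.21 and 0.633 CPM in D542G N libraries 1 to 3, against 46.1, 0.150 and 0 CPM in D542G ML libraries 1 to 3. In Y541S mice, N libraries 1 to 3 had 5.91, 11.3 and 7.12 CPM, against 0, 0 and 1589 CPM in ML libraries 1 to 3. In WT mice, N libraries 1 to 3 had 10.5, 1.53 and 0 CPM of Krt71, against 2520, 509.6 and 0.871 CPM in ML libraries 1 to 3. Krt71 was the member seen most evenly in the N gate, with counts in 8 of 9 N libraries (27 to 451 counts) and in 6 of 9 ML libraries.

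Krt73 and Krt72 are the other type II sheath keratins. In D542G mice Krt73 had 0.133, 0.198 and 0 CPM in N libraries 1 to 3, against 14.4, 0.0215 and 0.0207 CPM in ML libraries 1 to 3. Y541S N libraries 1 to 3 had 1.79, 1.18 and 0.201 CPM of Krt73, against 0.0238, 0 and 457 CPM in Y541S ML libraries 1 to 3. WT N libraries 1 to 3 had 0.251, 0.207 and 0.0247 CPM of Krt73, against 507 CPM in WT ML 1, 92.4 in WT ML 2 and 0.641 in WT ML 3. Krt73 thus followed the order of Krt71 among the high ML libraries, and overlapped between gates elsewhere. Krt72 was the least abundant type II member, at 0 to 0.201 CPM in N libraries (at most 8 counts), against 63.1 CPM in Y541S ML 3, 18.9 in WT ML 1, 0.581 in WT ML 2 and 0.304 in D542G ML 1, with 0 in the other 5 ML libraries. Its highest library was Y541S ML 3, whereas that of Krt71 and Krt73 was WT ML 1.

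Of the type I sheath keratins, Krt25 had 0.111, 0.297 and 0 CPM in D542G N libraries 1 to 3, against 14.5, 0.0215 and 0 CPM in D542G ML libraries 1 to 3. In Y541S mice Krt25 had 0, 0 and 1.61 CPM in N libraries 1 to 3, against 0, 0 and 335 CPM in ML libraries 1 to 3. In WT mice it had 6.99, 0.646 and 0.592 CPM in N libraries 1 to 3, against 806 CPM in WT ML 1, 185 in WT ML 2 and 0.154 in WT ML 3. Y541S mice therefore had Krt25 in both libraries numbered 3 and in neither gate of numbers 1 and 2. Krt27, its closest relative by coding sequence, ranged from 0 to 1.11 CPM in N libraries with counts in 5 of 9, against 423 CPM in WT ML 1, 229 in Y541S ML 3, 122 in WT ML 2 and 11.0 in D542G ML 1, with 0 in the other 5 ML libraries.

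Krt28 is the type I sheath keratin that was found most widely, with counts in all 9 N libraries and in 7 of 9 ML libraries. It had 0.933, 0.317 and 0.727 CPM in D542G N libraries 1 to 3, against 25.6, 0.0215 and 0.413 CPM in D542G ML libraries 1 to 3. Y541S N libraries 1 to 3 had 0.483, 0.0503 and 1.18 CPM of Krt28, against 0, 0 and 655 CPM in Y541S ML libraries 1 to 3. WT N libraries 1 to 3 had 28.7, 2.20 and 0.0247 CPM, against 587, 86.8 and 0.0256 CPM in WT ML libraries 1 to 3. Unlike Krt25, Krt28 was higher in Y541S ML 3 than in WT ML 1.

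Krt35, a shaft keratin of the matrix and cuticle, had 0.0444, 0 and 0 CPM in D542G N libraries 1 to 3, against 38.0, 0 and 0 CPM in D542G ML libraries 1 to 3. Y541S N libraries 1 to 3 had 0.0920, 0.0251 and 0.880 CPM of Krt35, against 0, 0 and 637 CPM in Y541S ML libraries 1 to 3. WT N libraries 1 to 3 had 34.8, 0.0776 and 0 CPM, against 1284, 257 and 0 CPM in WT ML libraries 1 to 3. Apart from WT N 1, Krt35 was under 1 CPM in every N library. Krt31, a keratin of the shaft cortex, had 0.267, 0.258 and 0.422 CPM in D542G N libraries 1 to 3, against 0.253, 0 and 0 CPM in D542G ML libraries 1 to 3. In Y541S mice Krt31 had 0, 0 and 0.0755 CPM in N libraries 1 to 3, against 0.0238, 0 and 34.8 CPM in ML libraries 1 to 3. WT N libraries 1 to 3 had 0.0503, 0.284 and 0 CPM of Krt31, against 32.2, 13.1 and 0.0256 CPM in WT ML libraries 1 to 3. Krt31 was thus highest in the same 3 ML libraries as the other members, at lower levels than Krt35. It was the only member that was higher in N than in ML libraries of every number in D542G mice, at 12 to 18 counts in N libraries. For number 1 this was 12 counts against 10, which gives no clear direction.

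**Figure D2:**
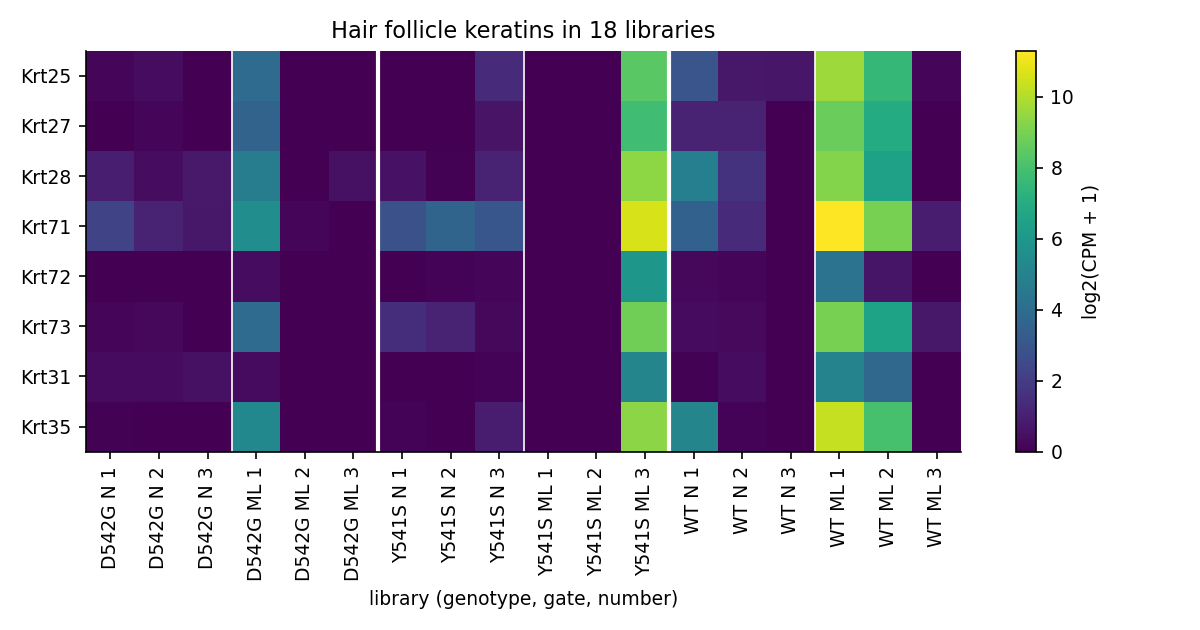
Level of each measured hair follicle keratin (rows: 3 type I sheath, 3 type II sheath and 2 shaft keratins) in each library (columns), as log2(CPM + 1). The columns of WT ML 1, Y541S ML 3 and WT ML 2 are the brightest, with Krt72 and Krt31 as their dimmest rows. D542G ML 1 and WT N 1 are intermediate, and Krt71 is the row with the most even signal over the N libraries.

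Across the 18 libraries the members varied together: the 28 pairwise Pearson correlations of log2(CPM + 1) ranged from 0.800 (Krt72 with Krt35) to 0.989, with a median of 0.945. The libraries share genotypes, gates and numbers, and a few libraries with high values set the correlations, so they are a description only. The make-up of the keratin counts was compared in the 5 libraries with at least 1000 such counts. Krt71 held 40.8% of them in WT ML 1 (95% Wilson interval 40.6 to 41.0%), 40.2% in WT ML 2 (39.8 to 40.7%), 39.7% in Y541S ML 3 (39.5 to 40.0%) and 30.7% in D542G ML 1 (29.5 to 31.9%), whereas in WT N 1 it held 12.7% (11.6 to 13.9%). The intervals cover counting error only. Krt28 held 34.8% in WT N 1, against 9.50% in WT ML 1 and 6.86% in WT ML 2, and it held 17.0% in D542G ML 1 and 16.4% in Y541S ML 3. Krt35 held 42.1% in WT N 1, 25.3% in D542G ML 1, 15.9% in Y541S ML 3, 20.8% in WT ML 1 and 20.3% in WT ML 2. Krt73 held 0.305% in WT N 1 and 7.30 to 11.4% in the 4 ML libraries. WT N 1 thus differed in its mixture from the 4 ML libraries, with more Krt35 and Krt28 and less Krt71, Krt73 and Krt27 (1.34%, against 5.73 to 9.64%).

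**Figure D3:**
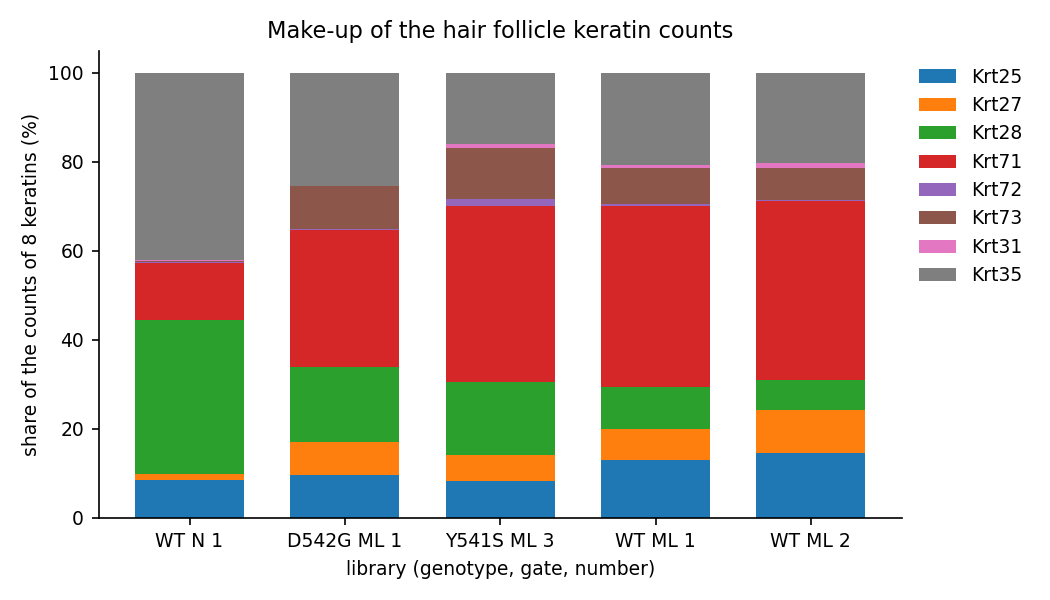
Share of each keratin (y axis, percent) in the counts of the 8 measured members, in the 5 libraries with at least 1000 such counts (x axis). Krt71 holds 30.7 to 40.8% in the 4 ML libraries and 12.7% in WT N 1, where Krt35 and Krt28 hold 42.1% and 34.8%.

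Levels of different genes were compared per kilobase of exon. On that scale, CPM per kilobase, Krt71 was first in each of these 4 ML libraries, with 1153 in WT ML 1, 727 in Y541S ML 3, 233 in WT ML 2 and 21.1 in D542G ML 1. Krt35 was second in WT ML 1 (536), WT ML 2 (107) and D542G ML 1 (15.9, beside 15.8 for Krt28), and Krt28 was second in Y541S ML 3 (404). In WT N 1 Krt28 was first (17.7) and Krt35 second (14.5). Summed per kilobase, type II sheath keratins exceeded type I sheath keratins 1.34-fold in WT ML 1, 1.23-fold in WT ML 2 and 1.35-fold in Y541S ML 3. The ratio was 0.925 in D542G ML 1 and 0.230 in WT N 1. All 6 sheath keratins together exceeded both shaft keratins 4.38-fold in WT ML 1, 4.33-fold in WT ML 2, 5.87-fold in Y541S ML 3, 3.62-fold in D542G ML 1 and 1.85-fold in WT N 1.

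Libraries of the same genotype and number deviated together from their group means (all 9 N and ML pairs correlated at 0.166 to 0.553), so values were also set side by side by number. In WT mice, however, N 2 correlated with ML 1 at 0.192 and N 1 with ML 2 at 0.164, beside 0.166 for the WT 2 pair. The correlations therefore do not set the WT 2 pair apart from these unlike-numbered pairs. The summed keratins were lower in the N than in the ML library in 5 of the 9 pairs and higher in 4. In WT 1, WT 2 and Y541S 3 all 8 members were lower in N, and in D542G 1 7 of the 8 were. In D542G 2 and Y541S 2 no member was lower in N, and 7 and 6 were higher. The pairs in which N was higher (D542G 2 and 3, Y541S 1 and 2) were those whose ML library had 0 to 0.434 CPM.

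The model of all 18 libraries (edgeR's quasi-likelihood test, Benjamini-Hochberg adjustment, called at adjusted p under 0.05) gave N against ML log2 fold changes over the 3 genotypes of −8.09 to −4.62 for the 8 members, with standard errors of 1.46 to 2.91. All 8 were called lower in N, where 13.6% of the 18298 genes tested were called lower and 13.8% higher. The members were chosen from the same libraries, so nothing is read from this count. With same-numbered libraries as a replicate block 3 of the 8 were called, against 26.8% of all genes in either direction. DESeq2 called 7 of the 8 and 33.2% of all genes, and limma-voom with sample quality weights 0 of the 8 and 42.0% of all genes. Without D542G ML 1, or without Y541S ML 3, 0 of the 8 were called (22.1% and 24.4% of all genes), and without WT ML 1 4 were (26.1%). Leaving out single N libraries left 2 to 7 called, with 21.7 to 33.3% of all genes. Without WT ML 1, WT ML 2 and Y541S ML 3, an alternative added after the data were seen, the fold changes lay between −0.39 and 4.15, positive for 7 of the 8 members. Without D542G ML 1 as well they lay between 2.15 and 7.14 for the 7 members that still passed the filter. Both fits left out the ML libraries highest in the members, so these values depend on that choice and test nothing.

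Within single genotypes no member was called by edgeR. The members were chosen from the same libraries, so nothing is read from how many of them pass a threshold in the contrasts below. In D542G mice the members' N against ML log2 fold changes ran from −9.50 to 1.92, in a contrast with 4.71% of genes called higher and 4.49% lower. In Y541S mice they ran from −9.32 to −6.03 (4.22% of genes higher, 2.73% lower), and in WT mice from −10.26 to −4.45 (2.14% higher, 1.39% lower). At an unadjusted p under 0.05 there were 0 of the 8 members in D542G (24.8% of all genes), 7 in Y541S (22.3%) and 4 in WT mice (21.4%). DESeq2 called 0 members in D542G (17.4% of all genes), 3 in Y541S (13.6%) and 1 in WT mice (11.3%). Limma-voom called none of them, against 32.0% of all genes in D542G, 14.2% in Y541S and 28.2% in WT mice. Between ML groups, D542G against WT gave log2 fold changes of −7.50 to −4.70 and Y541S against WT of −1.57 to 1.69, with standard errors of 2.06 to 2.86. No member and no gene was called in these by edgeR (0.0% of genes, higher and lower, in each), and both comparisons share the WT libraries. An unadjusted p under 0.05 was found for 1129 genes (6.17%), 2 members among them, for D542G and for 1010 genes (5.52%), no member, for Y541S. None of the genes called by DESeq2 (0.601% for D542G, 0.279% for Y541S) or by limma-voom (0.508% and 0.0164%) was a member. The interaction of gate with D542G called no member, with 0.104% of genes called higher and 0.00547% lower. Of the 8 members, 1 had an unadjusted p under 0.05 there, as did 10.7% of all genes. DESeq2 and limma-voom called no member, against 2.21% and 6.85% of all genes.

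Other hair genes were high in the same libraries as the members. Shaft keratins outside the member list (13 genes) summed to 1.18 to 6.39 CPM in N libraries, against 161 CPM in WT ML 1, 104 in Y541S ML 3, 98.0 in WT ML 2 and 4.95 to 21.8 in the other 6 ML libraries. The type I shaft keratin Krt33a was at 0 to 3.70 CPM in N libraries, against 42.0 CPM in Y541S ML 3, 31.4 in WT ML 1, 16.7 in WT ML 2 and 0 in the 6 others. Krt84, a type II shaft keratin, was at 0.0235 to 0.553 CPM in N libraries, against 47.7 CPM in WT ML 1, 46.4 in WT ML 2, 3.54 in Y541S ML 3 and at most 0.101 CPM in the other ML libraries. Krt83, a type II keratin of the shaft, was at 0 to 1.29 CPM in N libraries, against 18.05 CPM in WT ML 1, 12.7 in Y541S ML 3 and 2.82 in WT ML 2. Of the 10 that passed the filter, 2 were called lower in N over the genotypes (Krt87, and Krt81, which was named after its values were seen) and none higher. Krt87 differed from the members: it was at 0.310 to 2.40 CPM in N and 4.92 to 21.1 CPM in ML libraries, with no overlap, at −3.19 ± 0.39 (log2 ± SE, adjusted p = 0.000113). The list's median log2 fold change was −3.41, against −0.03 for all genes tested. By DESeq2 6 were called lower, and without the 3 ML libraries highest in the members 1 was (Krt87).

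Keratin-associated proteins form the matrix between the keratin filaments of the shaft. Of 58 such genes listed 35 had a count, and 6 passed the filter. Krtap8-1 had 0 to 1.08 CPM in N libraries, against 36.1 CPM in WT ML 1, 30.4 in WT ML 2, 24.2 in Y541S ML 3 and 0 to 0.379 CPM in the remaining ML libraries. It was called lower in N (adjusted p = 0.0386), and it was the only 1 of the 6 called. The call was lost on leaving out any single library but WT ML 3, D542G ML 2, D542G ML 3, Y541S ML 1, Y541S ML 2 or WT N 1 (adjusted p up to 1). With the replicate block 3 were called lower. Krtap7-1 and Krtap11-1, which had no more than 0.528 CPM in any N library but 9.87 CPM or more in WT ML 1 and in Y541S ML 3, were not called (adjusted p = 0.134 and 0.0518). Krtap17-1 differed in gate, with its highest level in WT N 1 (17.3 CPM), the N library highest in the members. Within the ML gate it was highest in WT ML 2 (5.37 CPM) and WT ML 1 (3.56), with 0 to 2.77 CPM in the others.

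Shaft genes that are not keratins were called lower in N for 4 of 7 tested and higher for none, with a list median of −2.01. Among them, Selenbp1, a selenium-binding protein, was at −1.80 ± 0.33 (adjusted p = 0.00150), and it was also measured in ML libraries with few members. Dsg4, a desmoglein of the shaft, followed the members instead, at 0 to 0.0776 CPM in N libraries, against 7.43 CPM in Y541S ML 3, 7.14 in WT ML 1, 5.98 in WT ML 2 and 0.607 in D542G ML 1, with 0 in the remaining ML libraries (adjusted p = 0.0154). Leaving out D542G ML 1, or Y541S ML 3, ended its call (adjusted p up to 1). Psors1c2 and Gprc5d, named after their values were seen, were the others. Without the 3 ML libraries highest in the members, 2 were called lower and 1 higher. Crym, S100a3 and Padi4, the peptidylarginine deiminase, were not called. With the replicate block 4 were again called lower, but Dsg4 was not among them (adjusted p = 0.0887), and Crym was (adjusted p = 0.0202, against 0.0540 without the block).

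Of other inner root sheath genes 2 of 7 were called lower in N, Tgm1, a transglutaminase (−1.09 ± 0.16, adjusted p = 0.000273), and Padi1, which was named after its values were seen. None was called higher, and the list median was −1.09. Within the ML gate Tgm1 did not follow the members: it was at 88.1 CPM in WT ML 1, 95.5 in WT ML 2 and 112 in Y541S ML 3. The other ML libraries had 49.0 to 114 CPM of Tgm1, highest in WT ML 3. Cst6, a protease inhibitor, was high in both gates of the pairs that had a high ML library: 1141 CPM in WT N 1, 1203 in WT N 2 and 325 in Y541S N 3, against 714 CPM in WT ML 1, 257 in WT ML 2 and 939 in Y541S ML 3. It was also at 483 CPM in WT N 3, against 31.6 CPM in WT ML 3. The desmocollin Dsc1 was at 38.9, 60.5 and 37.6 CPM in WT N 1, WT N 2 and Y541S N 3, against 21.6, 9.99 and 68.7 CPM in the same-numbered ML libraries, and at 0 to 7.97 CPM in all others. Padi3, which modifies trichohyalin, was at 0 to 8.80 CPM in N libraries and reached 30.4 CPM in WT ML 1 and 23.7 in Y541S ML 3.

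Regulators of the hair matrix were split, with 4 of 18 called higher in N (Vdr, Hr, Bmp4 and Wnt10a) and 4 lower (Gata3, Trps1, Dlx3 and Msx2). Of these, Wnt10a, Hr, Bmp4 and Msx2 were named after their values were seen, and Dlx3 lost its call without any 1 of WT ML 1, D542G ML 1, Y541S ML 3, WT N 2, Y541S N 2, Y541S N 3 or the 3 D542G N libraries (adjusted p up to 0.134). The list median was 0.02, and without the 3 ML libraries highest in the members 6 were called higher and 2 lower. Gata3, which is also a regulator of luminal mammary cells, was at 100.4 to 340.2 CPM in N and 240.0 to 537 CPM in ML libraries (−1.26 ± 0.22, adjusted p = 0.00102). Trps1 was likewise high in all ML libraries, at 280 to 693 CPM, against 31.6 to 227 CPM in N libraries. Vdr, the vitamin D receptor, was at 1.67 ± 0.31 (adjusted p = 0.00143). Genes of the companion layer and outer root sheath rose in N for 7 of 9 and fell for none (list median 2.35). Krt75, a type II keratin of the companion layer, was not among the 7. It was at 0 to 46.4 CPM in N libraries, against 696 CPM in WT ML 1, 412 in WT ML 2 and 196 in Y541S ML 3. The other ML libraries had at most 15.9 CPM of Krt75. Some of the 7 are keratins of mammary basal cells too: Krt14 was at 4.93 ± 0.60 (adjusted p = 0.000198) and Krt5 at 4.56 ± 0.75 (adjusted p = 0.00162). Krt15, a keratin of bulge stem cells, was at 3.90 ± 0.61 (adjusted p = 0.000935), and reached 24571 and 24975 CPM in WT N 1 and WT N 2. In the ML gate these basal keratins were high where the members were: Krt14 had 3862 CPM in WT ML 1, 2925 in WT ML 2 and 839 in Y541S ML 3, against 50.1 to 159 CPM in the other 6 ML libraries. Krt5 had 2281, 1631 and 597 CPM in those 3 libraries and 6.89 to 76.1 CPM in the 6 others. The whole list of 9 mammary basal genes summed to 6310.5, 4712 and 1696 CPM in those 3 libraries and to 144 to 412 CPM in the other ML libraries, and to 5017 to 35817 CPM in N libraries. Its part in the members' values was not tested.

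Bulge stem cell genes rose in N for 6 of 10 and fell for 1, Sox9, with Lgr5, a receptor of follicle stem cells that basal mammary cells have too, at 4.60 ± 0.49 (adjusted p = 5.29e-05). Dermal papilla genes rose in N for 3 of 6 (Crabp1, Sostdc1 and Wif1) and fell for none. Crabp1, however, was not high where the members were: it reached 70.5 to 103 CPM in D542G N libraries, where the members summed to 1.78 to 5.44 CPM. Of 4 melanocyte genes tested 1, Sox10, was called lower in N. Tyr, the pigment enzyme that defines melanocytes, was at 0.0444 to 0.563 CPM in N and 0 to 0.194 CPM in ML libraries. Dct, another pigment enzyme, was at 13.1 CPM in WT N 1, and at 15.1 CPM in Y541S ML 3, 8.43 in WT ML 1 and 3.90 in D542G ML 1. The other 8 N libraries had at most 0.931 CPM of it and the other 6 ML libraries at most 1.51 CPM.

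**Figure D4:**
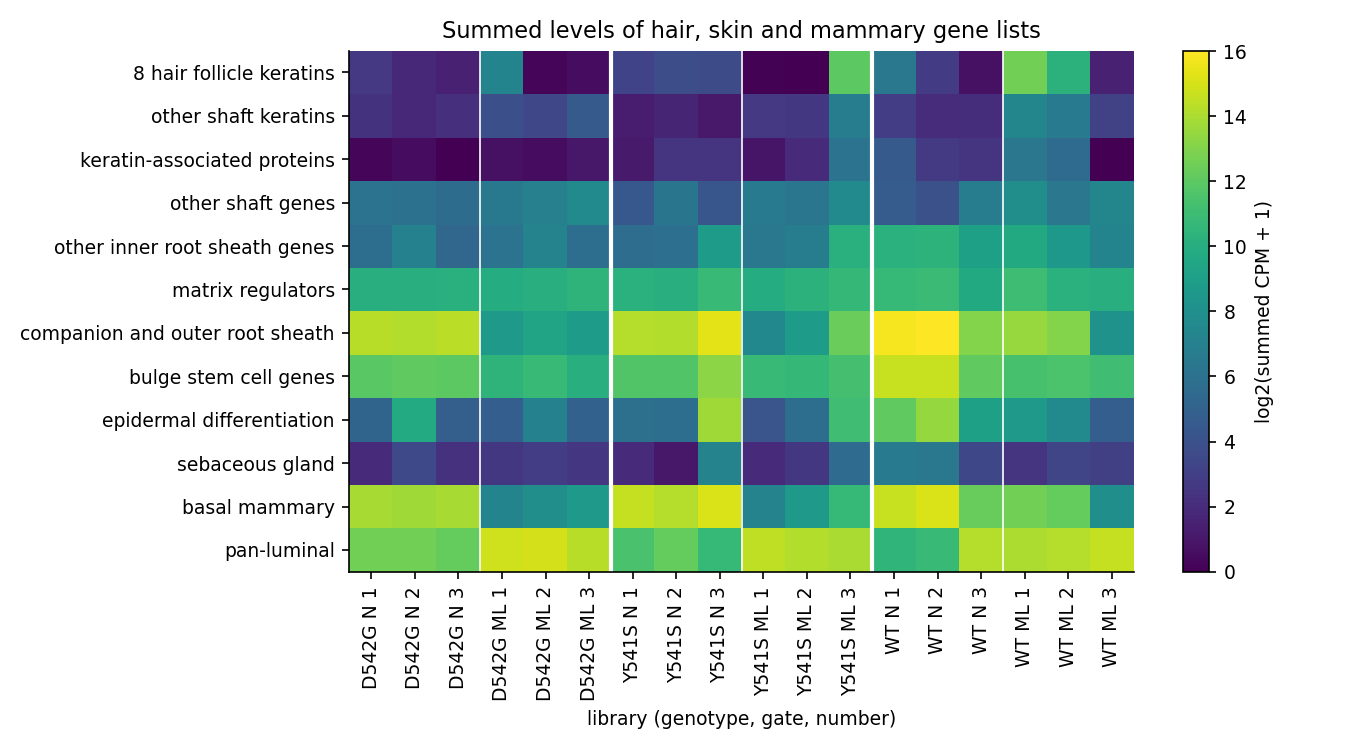
Summed level of the members and of 11 lists of hair, skin and mammary genes (rows) in each library (columns), as log2(summed CPM + 1). Within their rows, other shaft keratins and keratin-associated proteins are highest in WT ML 1, Y541S ML 3 and WT ML 2, as the members are. Epidermal genes are highest in Y541S N 3, WT N 2 and WT N 1, followed by Y541S ML 3 (2171 CPM).

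Genes of the differentiating epidermis, the surface layer of the skin, were highest in the N libraries that carry the same numbers as the ML libraries with most hair keratin. The 16 genes of this list summed to 13483 CPM in Y541S N 3, 11422 in WT N 2 and 4487 in WT N 1, against 2171 CPM in Y541S ML 3, 193 in WT ML 2 and 407 in WT ML 1. In the other 6 pairs the N libraries had 27.7 to 899 CPM and the ML libraries 17.8 to 130.0 CPM. The 3 ML libraries above 1000 CPM of hair keratins thus belong to the 3 numbers with the highest epidermal sums in N, whereas D542G 1, with 150.2 CPM of hair keratins in ML, had 34.2 CPM of epidermal genes in N and 26.6 in ML. Krt10, a keratin of the layers above the basal one, had 6005, 4862 and 1641 CPM in Y541S N 3, WT N 2 and WT N 1, against 905, 61.9 and 139.8 CPM in the same-numbered ML libraries. Krt1, its partner, was the 1 of 13 epidermal genes called higher in N (4.27 ± 1.30, adjusted p = 0.0457), and was not without the 3 ML libraries highest in the members. This call was lost on leaving out any single library but Y541S ML 3, Y541S N 1, Y541S N 2 or WT N 3 (adjusted p up to 0.611). With the replicate block 4 were called higher. Sebaceous gland genes summed to 143 CPM in Y541S N 3, 94.8 in WT N 1 and 82.9 in WT N 2, against 46.6, 4.66 and 9.22 CPM in the same-numbered ML libraries, and to at most 10.6 CPM in any other library. None of the 6 tested was called by edgeR (2 at an unadjusted p under 0.05, 1 by DESeq2, 0 by limma-voom, and 2 with the replicate block).

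**Figure D5:**
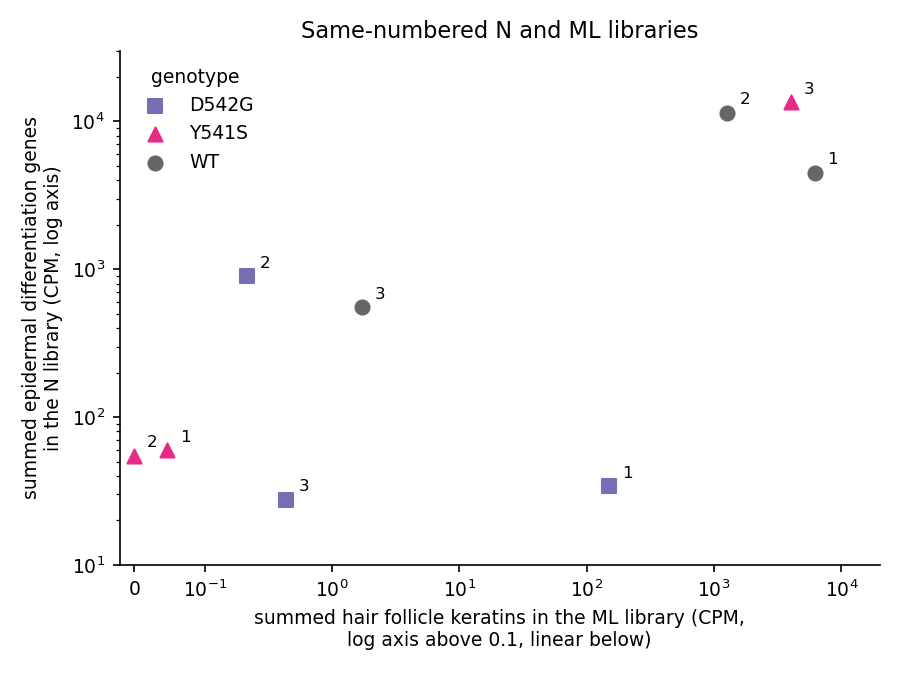
Summed epidermal differentiation genes in the N library (y axis, CPM, log scale) against the summed hair follicle keratins in the ML library of the same genotype and number (x axis, CPM, log scale above 0.1 and linear below); each point is 1 of 9 pairs, marked by its number. WT 1, WT 2 and Y541S 3 lie at the upper right, with 4487 to 13483 CPM of epidermal genes in N, and D542G 1 lies apart with 150.2 CPM of keratins and 34.2 CPM of epidermal genes.

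By the rule for genes most like the members (Pearson correlation of log2(CPM + 1) with the log2 of the summed members + 1 over 18 libraries, among 12556 genes), the first were Fgf5, a growth factor of the follicle that ends hair growth (r = 0.953, Spearman's rho 0.792), Krt75, a type II keratin of the companion layer (0.945, rho 0.840), the transcription factor Foxe1 (0.928, rho 0.855), the transglutaminase Tgm6 (0.924, rho 0.842) and Krtap8-1 (0.909, rho 0.819). Then came Dsg4 (r = 0.906, rho 0.804), the homeobox gene Dlx3 (0.889, rho 0.492), Lef1 (0.883, rho 0.645) and Dlx2 (0.883, rho 0.783). Krt33a (0.880, rho 0.674), the BMP-binding protein Bmper (0.879, rho 0.701) and the shaft keratin Krt82 (0.876, rho 0.802) followed. By rank, Dlx3, Lef1, Krt33a and Bmper thus followed the members less closely than by r. Fgf5 had counts where the members were high: 1.79 CPM in WT N 1 and 0.310 in WT N 2, and 10.4 CPM in WT ML 1, 9.17 in Y541S ML 3, 3.18 in WT ML 2 and 1.97 in D542G ML 1, and it was at 0 in the other 12 libraries. Krt75 was at 46.4 CPM in WT N 1, with 0 to 8.05 CPM in the rest of that gate, and at 696 CPM in WT ML 1, 412 in WT ML 2, 196 in Y541S ML 3, 15.9 in D542G ML 1 and 0 to 0.700 CPM in the other ML libraries. Dlx3 was at 0 to 12.4 CPM in N libraries, against 136 CPM in WT ML 1, 78.7 in Y541S ML 3, 14.6 in WT ML 2 and 0.579 to 1.97 in the other ML libraries. For whole lists, the median r with the summed members was 0.853 over 10 other shaft keratins, 0.816 over 6 keratin-associated proteins and 0.765 over 7 other shaft genes. It was 0.503 over 7 other inner root sheath genes, 0.394 over 13 epidermal genes and −0.178 over 9 mammary basal genes, and −0.00814 over all 18298 genes tested. Over 18 matrix regulators it was 0.346, with single genes from −0.0288 to 0.889. These r pool both gates, and the basal genes summed to 5017 CPM or more in every N library. Within the ML gate they were highest where the members were: 6310.5 CPM in WT ML 1, 4712 in WT ML 2 and 1696 in Y541S ML 3. The other ML libraries had 144 to 412 CPM of them.

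Luminal markers were high in all ML libraries. Krt18 was at 3829 CPM in WT ML 1, 4511 in WT ML 2 and 3578 in Y541S ML 3, against 3909 to 7634 CPM in the 6 other ML libraries, and Krt8 at 503, 715 and 589 CPM there, against 711 to 1089.9 CPM in the others. Esr1 was at 118, 187 and 112 CPM in the 3 libraries and 49.4 to 455 CPM in the 6 others. Ptprc, the leukocyte gene CD45, was at most 3.65 CPM in N and 3.79 CPM in ML libraries. Of the 8 immune genes listed, 1 was called lower in N and none higher. This was Jchain, a gene of antibody-secreting cells, at −5.89 ± 1.41 (adjusted p = 0.0200, and 0.0977 with the replicate block, which ended the call). Jchain was at 0 to 12.7 CPM in N libraries, against 1077 CPM in Y541S ML 2, 593 in WT ML 2, 327 in WT ML 1, 70.1 in D542G ML 1, 2.69 in Y541S ML 3 and 0 to 32.0 CPM in the remaining ML libraries. It was thus high in WT ML 1 and WT ML 2, where the keratins were high, and highest in Y541S ML 2, which had no keratin count. The immune genes together summed to 8.07 to 119.6 CPM in N and 5.51 to 1098 CPM in ML libraries, and their part in the members' values was not tested. Leaving out Y541S ML 2, D542G N 1, D542G N 2 or WT N 2 also ended the call of Jchain (adjusted p up to 0.0942). Among the N libraries WT N 3 stood apart, with Krt18 at 4581 CPM against 194 to 1577 CPM in the 8 others, and it had the lowest sum of hair keratins in that gate.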

How the data were processed

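RNA of cells sorted from mouse mammary gland was sequenced in 18 libraries, prepared from cDNA by Nextera XT, per the labels' protocols. The deposited tables hold whole-number read counts for 52636 genes per library, and these counts were read as the authors deposited them. The build was GRCm38, per the submitters' processing notes. The sources used here name no aligner, counter, counting annotation or strand setting. A gene at 0 that overlaps another is not interpreted. Of the identifiers 52403 (99.6%) matched GENCODE annotation for symbols, coordinates and exon lengths. Promoters were read from a RefSeq table of GRCm38.p6.

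The members and all gene lists were chosen with earlier results of these data known. In R 4.3.3 with edgeR 4.0.16, 18298 genes passed filterByExpr with the 6 groups, a minimum count of 10 and a minimum total of 15, and TMM scaled the libraries. A single quasi-likelihood model of 6 group means with 12 residual degrees of freedom gave all contrasts. Within each contrast the Benjamini-Hochberg adjustment ran over all genes tested, and an adjusted p under 0.05 is a call. Standard errors come from the model's information matrix. CPM use the scaled totals, and a 0 allows up to 3 counts. P-values set a difference between groups against the spread between replicate libraries. The main model holds no term for pairs of N and ML libraries, which only the replicate block takes into account. The scripts were tested on simulated data.

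Libraries of 1 number within a genotype were taken as pairs of N and ML, since all 9 pairs of deviations from the group means correlated at 0.166 to 0.553. This comes from the data, and the labels do not state it. It is less certain for WT numbers 1 and 2, where N 2 with ML 1 (0.192) and N 1 with ML 2 (0.164) also correlated. Across genotypes equal numbers did not pair the libraries.

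Named genes are all 10 members, up to 4 genes of each other list with the highest mean CPM, the 12 genes most correlated with the summed members (mean CPM of at least 1, pseudocount 1) and 6 mammary or immune markers. Others are marked as named after their values were seen. Alternatives were DESeq2 1.42.0 (test and size factors), library totals alone, no filter, limma-voom 3.58.1 with quality weights, the pairs as a block and leaving out each library.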

Additional observations from a re-analysis of the deposited data

Results flagged for a closer look

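Krt31, the keratin of the shaft cortex, was higher in N in the same-numbered pairs of D542G libraries and lower in N in the WT pairs. The mean difference between N and ML libraries on the log2(CPM + 1) scale was 0.28 in D542G mice, with N higher in 3 of 3 pairs, and −2.83 in WT mice, with N lower in 3 of 3. In D542G mice the levels are 0.258 to 0.422 CPM in N (12 to 18 counts) and 0 to 0.253 CPM in ML libraries (0 to 10 counts). The WT pairs had 2, 11 and 0 counts in N, against 1340, 474 and 1 count in ML libraries 1 to 3. In the third WT pair, 0 counts against 1 give no direction, since a 0 allows up to 3 counts. In the first D542G pair, 12 counts in N against 10 in ML (0.267 against 0.253 CPM) give no clear direction either. The interaction of gate with D542G was not called for Krt31 by edgeR (log2 8.98 ± 3.29).

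Padi1, a peptidylarginine deiminase of the inner root sheath, had an N against ML difference that differed between D542G and WT mice, by the interaction of gate with D542G (log2 9.40, adjusted p = 0.0174 by edgeR). It had 3.24, 4.87 and 3.73 CPM in D542G N libraries 1 to 3, against 4.81, 2.88 and 2.83 CPM in D542G ML libraries 1 to 3. In WT mice it had 0 counts in all 3 N libraries, against 1.87, 1.97 and 1.51 CPM in ML libraries 1 to 3, so the fitted value depends on the prior count and is no bound. The interaction was called in 20 of 26 alternatives (adjusted p 4.33e-06 to 0.268), and with the replicate block it was not (adjusted p = 0.148). Padi1 was not high where the keratins were.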

How the results depend on the processing

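Of 3120 values recomputed under an alternative, 2773 kept their direction and their side of the threshold or stayed within the spread allowed. Another scaling (DESeq2 size factors or library totals alone), no filter and the pairing of N with ML libraries changed no direction of a member. Depth limits the low levels: a member at 0 in a library could hold up to 3 counts, and 64 of the 72 member values in N libraries were under 100 counts. The cause of the changes below was not tested.

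Without WT ML 1, WT ML 2 and Y541S ML 3, which was added after the data were seen and leaves 1 WT ML library, assumed to vary like the other groups, the N against ML log2 fold changes turned to 2.20 for Krt25, 2.46 for Krt27, 4.15 for Krt28, 3.56 for Krt71, 2.46 for Krt72, 1.62 for Krt31 and 3.11 for Krt35, and also for Fgf5 (0.037), Krtap8-1 (1.83) and S100a3 (1.10). Without D542G ML 1 as well they were 5.03 for Krt25, 5.88 for Krt27, 5.91 for Krt28, 6.10 for Krt71, 2.15 for Krt73, 3.24 for Krt31, 7.14 for Krt35, 2.63 for Fgf5, 7.71 for Krt75 and 3.64 for Krtap8-1. Both of these fits left out the ML libraries highest in the members, so the members' values in them are no test. With 1 library left out at a time Krt71 ran from -6.46 (without WT N 1) to 0.15 (without Y541S ML 3).

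Genes called for N against ML over the genotypes (5022) numbered 7690 by limma-voom and 2804 without the 4 ML libraries just named, and 4105 to 6365 with 1 library left out. In WT (646) there were 2064 by DESeq2, 5167 by limma-voom, 57 without the 3 libraries, 72 without the 4, and 157 to 2965 with 1 left out. In D542G (1684) there were 3186, 5862, 608 without the 4, and 702 to 2545. In Y541S (1272) there were 2494, 2595, 812 without the 4, and 571 to 2045. In the ML gate D542G against WT (0) gave 110 by DESeq2, 93 by limma-voom, 3 without the 3 libraries, 2 without the 4, and 0 to 1 with 1 left out, and Y541S against WT (0) gave 51, 3, 4, 2, and 0 to 1. The interaction with D542G (20) gave 404 by DESeq2, 1254 by limma-voom, 7 without the 3, 1 without the 4, and 3 to 149, and that with Y541S (0, with 1538 genes at an unadjusted p under 0.05) gave 185, 334, and 0 to 60.

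With the replicate block, 4903 genes were called over the genotypes, 900 in WT, 1955 in D542G and 1589 in Y541S, and 15 and 0 for the interactions. With the replicate block of numbers across genotypes, which did not pair, 0 genes were called between ML groups. The block moved keratin-associated genes lower in N to 3, epidermal genes higher to 4 and sebaceous genes higher to 2. It changed no other list count by over 1.5 times.

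Of the other lists, by DESeq2 1 inner root sheath gene was higher, 6 shaft keratins and 3 keratin-associated genes lower, 3 epidermal genes higher and 1 lower, and 1 sebaceous gene higher. Limma-voom gave 1 shaft keratin and 0 keratin-associated genes lower and 0 epidermal genes higher. With library totals alone 3 keratin-associated genes were lower and 0 epidermal genes higher, and without the filter 0 epidermal genes were higher. Without the 3 libraries, and likewise without the 4, 1 shaft keratin, 2 other shaft genes, 0 keratin-associated genes and 2 matrix regulators were lower and 0 epidermal genes higher. Without the 3, 1 other shaft gene was higher.

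With 1 library left out, genes lower in N were 2 to 3 for the inner root sheath, 1 to 4 for shaft keratins, 3 to 5 for other shaft genes, 0 to 3 for keratin-associated genes and 2 to 5 for matrix regulators. Genes higher in N were 5 to 8 for the companion and outer root sheath, 4 to 5 for matrix regulators, 4 to 6 for the bulge, 3 to 5 for the dermal papilla, 0 to 1 for melanocytes, 0 to 4 for the epidermis and 0 to 3 for sebaceous glands.

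The mean of the summed members with 1 library left out ran from 2.09 to 3.92 CPM in D542G N and 0.324 to 75.3 in D542G ML, from 10.002 to 12.2 in Y541S N and 0.0238 to 2000.3 in Y541S ML, and from 3.42 to 44.4 in WT N and 634 to 3723 CPM in WT ML libraries.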
